A study of Mus musculus with 8 samples.

Results

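The titles of the 8 arrays of EMS404 cells carry a number from 1 to 4 within each siRNA group, and the data described here are those of the 2 arrays numbered 4, 1 from siBNC2 cells and 1 from siCTRL cells, set against the 6 arrays numbered 1 to 3. EMS404 cells, an established mouse line, stand in for myofibroblastic hepatic stellate cells (MF-HSCs), which lay down scar in the injured liver. All cells were grown with fetal serum and transfected by lipofection with 20 nM siRNA, either against Bnc2, which encodes the zinc finger protein basonuclin 2 (siBNC2), or against no target (siCTRL), and total RNA was taken after 48 h. No primary or sorted cells and no animals were involved. The study's methods call its cell line replicates independent and say that the groups compared were handled together in each round of them, but neither the methods nor the labels say whether the number in a title is that round. The arrays numbered 4 were chosen by their log2 values, those of interferon-stimulated genes above all, which stood apart in earlier results of these data. Their difference from the others is therefore given as a description, with its SE and without a test, and with only 2 arrays on that side.

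Several gene programmes serve as landmarks for such cells. Interferon-stimulated genes encode antiviral proteins and are switched on together when type I interferon activates the STAT and IRF factors. Cholesterol is made from acetyl-CoA by a chain of enzymes whose genes are driven by the membrane-bound factor SREBP2. Contractile genes such as smooth muscle actin define the myofibroblast and are driven by serum response factor (SRF) with actin-sensing co-activators, whereas immediate early genes respond within minutes to growth factors and stress and largely encode transcription factors and phosphatases. The fibrillar collagens, the glycoproteins and the proteoglycans around them form the matrix of the fibrotic scar.

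The deposited values are log2 signals per probe set, on which 1 unit is a 2-fold difference, averaged here per gene symbol over 22180 genes. Array medians lay between 6.45 and 6.5. Over all genes the 2 arrays numbered 4 correlated with each other at r = 0.995, while the 12 pairs of an array numbered 4 with another array gave 0.983 to 0.990 and the 15 pairs of arrays numbered 1 to 3 gave 0.990 to 0.996. The mean of 9 hybridisation control probe sets was 14.65 on the siBNC2 array numbered 4, against 14.98 to 15.58 on the other siBNC2 arrays, and 15.05 on the siCTRL array numbered 4, against 14.84 to 15.58 on the other siCTRL arrays. The mean of 23 background probe sets was 5.38 and 5.45 on the siBNC2 and siCTRL arrays numbered 4 and lay between 5.41 and 5.55 on the others. The part of these controls in the results below was not tested. Since RNA of whole cultures was measured, fewer cells of a type and less RNA per cell cannot be told apart.

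Bnc2, the target of the siRNA, was higher on both arrays numbered 4. It read 8.18 on the siBNC2 array numbered 4, against 7.07, 6.78 and 6.72 on siBNC2 arrays 1 to 3, and 9.03 on the siCTRL array numbered 4, against 8.26, 8.41 and 8.37 on siCTRL arrays 1 to 3. The difference between the arrays numbered 4 and the rest was 1.01 ± 0.17 (SE from limma with the siRNA as covariate, as for every such difference below). Within number 4, Bnc2 was 1.8-fold lower in siBNC2 than in siCTRL, and within numbers 1 to 3 it was 2.81-fold lower, so that the target read lower in siBNC2 at each number. The paralog Bnc1 was higher by 0.84 ± 0.17, at 14.92 and 14.85 on the siBNC2 and siCTRL arrays numbered 4, against 13.81 to 14.02 on the other siBNC2 arrays and 14.02 to 14.52 on the other siCTRL arrays.

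A gene was counted as different where the arrays numbered 4 differed from the rest by at least 2-fold and each of them lay outside the range of the other 3 arrays of its own siRNA group. By this count 189 genes were higher (0.852% of all genes) and 297 were lower (1.34%), which makes 486 genes in either direction (2.19%), and 3 of these had a mean under 5.66, the 40th percentile of all genes, below which a gene is called dim. Of the 13308 genes that were not dim, 188 were higher (1.41%) and 295 lower (2.22%). These shares are the background for every list below. As the count uses the contrast that singled out the arrays, nothing is read from it about any list. At any size of difference, 2970 genes (13.4%) lay above and 2389 (10.8%) below all 3 other arrays in both siRNA groups. Genes close to the limit were Myc, a growth-promoting transcription factor that was counted at −1.02, and Fhl2, an SRF-controlled LIM protein that was not counted at −0.99.

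The siBNC2 and siCTRL cells share no array, so the difference of number 4 was computed in each on its own. Over genes these differences correlated at r = 0.67, and at r = 0.56 outside a hand-written list of 109 interferon-stimulated genes, which need not be complete. Genes are not independent replicates, and this value describes 2 pairs of values only. Among brighter genes outside that list, 227 were at least 2-fold higher on the siCTRL array numbered 4 than the mean of siCTRL arrays 1 to 3, and 218 of them were also higher on the siBNC2 array numbered 4. Likewise 206 were at least 2-fold lower in siCTRL, and 201 of them were also lower in siBNC2. The genes in these counts were picked by their size in siCTRL, and over all genes the agreement was partial. The tail of lower genes was longer than that of higher ones.

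**Figure D1:**
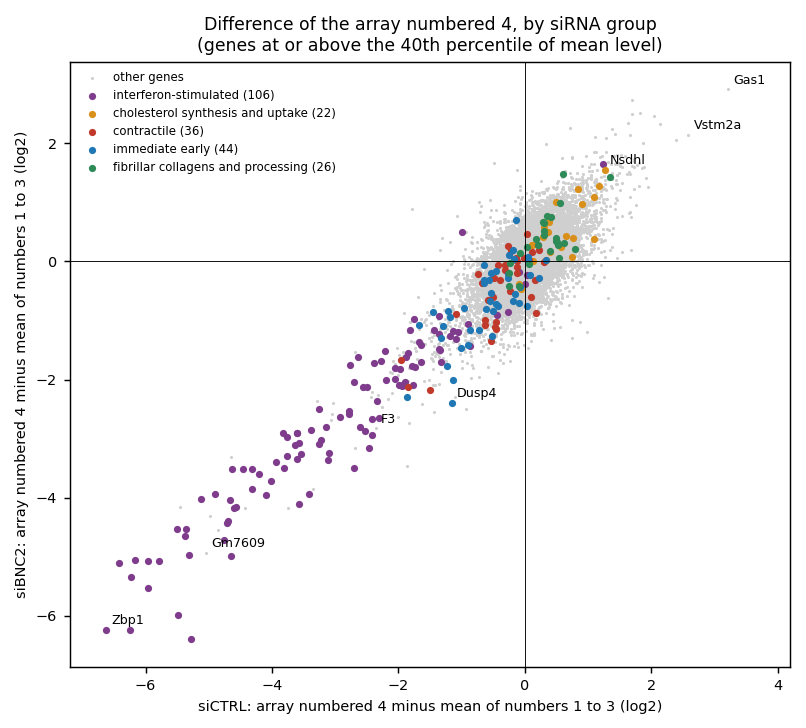
Difference of the array numbered 4 from the mean of arrays 1 to 3 (log2) in siCTRL (horizontal axis) and siBNC2 (vertical axis), each point a gene at or above the 40th percentile of mean level and 5 lists in colour. The points run along the diagonal, with Zbp1 at −6.62 in siCTRL and −6.23 in siBNC2 at the low end and Gas1 at 3.21 and 2.91 at the high end.

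The lower tail was led by interferon-stimulated genes. Of 109 measured members 97 were counted lower and 1 was counted higher, with a median difference of −2.70 beside 0.01 over all genes, and 49 of the 57 genes counted lower by 8-fold or more belonged to this list. Zbp1, a sensor of left-handed nucleic acids, read 8.14 and 7.71 on the siBNC2 and siCTRL arrays numbered 4, against 14.64, 13.10 and 15.34 on siBNC2 arrays 1 to 3 and 15.66, 12.29 and 15.02 on siCTRL arrays 1 to 3. That is 85.8-fold lower. Ifi205, of the p200 family of DNA-binding proteins, was 75.4-fold lower, and Slfn2, a schlafen family member, 57.1-fold lower. Of the factors that drive the programme, Irf7 was lower by −5.01 ± 0.51, Stat2 by −3.40 ± 0.41 and Irf9 by −1.49 ± 0.22. The exception was Ifi27, which was counted higher, at 12.91 and 12.76 against 10.58 to 11.82 and 10.93 to 12.38.

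The arrays on the other side were not uniform for these genes. The mean of the list was 9.38 and 9.17 on the siBNC2 and siCTRL arrays numbered 4, against 12.30, 11.69 and 12.32 on siBNC2 arrays 1 to 3 and 12.75, 11.20 and 12.41 on siCTRL arrays 1 to 3. Arrays numbered 2 were thus the lowest of the remainder in both siRNA groups, but still above the arrays numbered 4. Ifnb1, the gene of interferon beta itself, was dim, at 4.52 and 4.41 against 4.71 to 5.11 and 4.74 to 5.36.

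The interferon list was written by hand, and a gene outside it may still respond to interferon, which was not tested. Outside that list 200 genes were counted lower (0.906% of 22071 genes) and 188 higher (0.852%), and 29 genes outside it were counted lower by 4-fold or more. The 8 with the most negative difference are described next. Gm7609 read 6.69 and 6.77, against 11.64, 11.20 and 12.02 on siBNC2 arrays 1 to 3 and 12.66, 10.44 and 12.36 on siCTRL arrays 1 to 3, or 31.7-fold lower. Ddx60, a helicase gene, was 27.9-fold lower and Gbp9, of the guanylate-binding proteins, 19.8-fold lower. Gm12250, annotated with the synonym Irgb10, was 26.0-fold lower, and the long noncoding RNA Gm20559 was 25.0-fold lower. Gm4841, Ifi203-ps and Mndal were 15.8-, 15.5- and 12.1-fold lower, of which the middle gene is annotated as a pseudogene and the last belongs to the p200 family, whose members are alike in sequence, so that their probe sets may share signal. All 8 genes had the lowest value of their siRNA group on the array numbered 4, which the count requires.

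The promoters of several of these genes hold the core of the interferon-stimulated response element (ISRE), which is GAAA, any 2 bases and GAAA, the letters bound by the interferon-activated STAT and IRF complex. RefSeq promoter windows (GRCm38.p6, from 250 bases before to 50 after the start of a gene) were given for 16990 of the measured genes, and 657 of these (3.87%) held the core on either strand. Among the 84 interferon-stimulated genes with a window 37 (44.0%) held it, and among the 146 genes with a window that were counted lower outside the list 20 (13.7%) did. For the 151 genes with a window that were counted higher the share was 4 (2.65%). A match describes letters and not binding. The stretches below come from the named genes with large negative differences for which a match before the start was found. No stretch is shown for Zbp1, Slfn2, Gm7609, Gm20559, Gbp9, Gm4841 and Ifi203-ps, several of which had larger differences. A further match in Ddx60 and in Mndal is left out. They read along the strand of the gene, with the core, or its reverse complement, in capitals.
Ifi205, chr1:174031870-174031899, minus strand, the core beginning 134 bases before the start: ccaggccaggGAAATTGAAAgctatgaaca
Mndal, chr1:173880204-173880233, minus strand, 36 bases before a start: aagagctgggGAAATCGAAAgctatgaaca
Ddx60, chr8:61928024-61928053, plus strand, 53 bases before the start: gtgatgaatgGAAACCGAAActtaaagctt
Gm12250, chr11:58183742-58183771, plus strand, 91 bases before the start: cctcggtggcTTTCAGTTTCtatgcctaga
Gm12250, chr11:58183787-58183816, plus strand, 46 bases before the start: agaaatctgcTTTCAGTTTCatgttcttgg
The p200 genes Ifi205 and Mndal, which lie on the same chromosome, carry the core at different distances from their annotated starts.

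Genes of cholesterol synthesis and uptake were higher on the arrays numbered 4, by less than the interferon-stimulated genes were lower. Of 23 measured members 20 had a higher and 3 a lower mean, 4 were counted higher, 0 were counted lower, and the median was 0.43 over a range from −0.26 to 1.40. Nsdhl, which removes a carbon from the sterol ring system, read 14.49 on the siBNC2 array numbered 4, against 13.23, 13.06 and 12.53 on siBNC2 arrays 1 to 3, and 14.19 on the siCTRL array numbered 4, against 12.81, 13.01 and 12.96 on siCTRL arrays 1 to 3. Its difference was 1.40 ± 0.19, or 2.65-fold. Dhcr7, the enzyme of the last step to cholesterol, read 11.93 and 11.61, against 10.78, 10.69 and 10.51 in siBNC2 and 10.51, 10.34 and 10.42 in siCTRL, a difference of 1.23 ± 0.13. In both genes the arrays numbered 4 lay above the range of the others, which the count requires.

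The other counted members were Tm7sf2, a sterol reductase, at 1.10 ± 0.18, and Lss, which closes the sterol rings, at 1.04 ± 0.23. Lss read 11.67 and 11.17, against 10.56, 10.71 and 10.03 in siBNC2 and 10.13, 10.11 and 10.75 in siCTRL. Members under the limit stood on the same side: Fdft1, which makes squalene, at 0.94 ± 0.22, and Hmgcs1, an early enzyme of the chain, at 0.75 ± 0.19. Ebp and Hsd17b7 were on the other side at −0.24 and −0.26. The mean of the list was 12.11 and 12.10 on the siBNC2 and siCTRL arrays numbered 4, against 11.72, 11.71 and 11.55 on siBNC2 arrays 1 to 3 and 11.55, 11.54 and 11.61 on siCTRL arrays 1 to 3. The 2 arrays numbered 4 were thus nearly equal, and above every other array.

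Fatty acid synthesis, controlled by the related factor SREBP1, ran the same way. Of 16 members 15 had a higher mean, with a median of 0.39, and 1 was counted, Elovl6, which lengthens fatty acids. Elovl6 read 13.35 and 13.39, against 11.86, 11.78 and 11.08 in siBNC2 and 11.40, 11.90 and 12.10 in siCTRL, a difference of 1.68 ± 0.24, or 3.21-fold. The desaturase Scd1 stood at 0.74 ± 0.20. Genes of cholesterol efflux, which the sterol-sensing LXR factors induce, had a median of −0.02 over 9 members, of which 4 were dim, and of 0.21 over the members that were not dim, and the largest difference was 0.80 ± 0.15 in Lpcat3, a phospholipid-remodelling enzyme.

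Contractile genes differed in level among themselves. Of 42 measured members 30 had a lower and 12 a higher mean, 3 were counted lower, 0 were counted higher, and the median was −0.22. The 3 counted genes are classical markers of smooth muscle and myofibroblasts. Acta2, smooth muscle actin, read 14.80 on the siBNC2 array numbered 4, against 16.23, 17.10 and 16.08 on siBNC2 arrays 1 to 3, and 14.08 on the siCTRL array numbered 4, against 15.54, 16.67 and 15.90 on siCTRL arrays 1 to 3, or 3.52-fold lower. Tagln, an actin-binding protein, read 10.54 and 10.23, against 12.85, 13.08 and 12.03 in siBNC2 and 11.83, 12.64 and 11.75 in siCTRL, or 3.95-fold lower. Myl9, a myosin light chain, read 9.98 and 10.01, against 12.21, 12.56 and 11.66 in siBNC2 and 10.98, 12.20 and 11.32 in siCTRL, or 3.56-fold lower. In all 3 genes arrays numbered 2 were the highest in both siRNA groups, while they were the lowest of numbers 1 to 3 for the interferon list.

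Beyond these genes the list was mixed. Fhl2 stood at −0.99 ± 0.16, with 11.06 and 10.97 against 11.74 to 12.18 and 11.94 to 12.25. SRF itself, Srf, stood at −0.80 ± 0.23, the calponin Cnn2 at −0.86 ± 0.17 and the tropomyosin Tpm2 at −0.79 ± 0.19. Vinculin, Vcl, stood at −0.47 ± 0.22. The intermediate filament genes Vim and Des, which also mark stellate cells, stood at 0.00 and 0.14. The genes of the nonmuscle myosin Myh10 and of Actn4, an actin cross-linker, were slightly higher, at 0.25 and 0.24.

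The CArG box, the element that SRF binds, was present in 9 of the 37 contractile genes with a promoter window (24.3%), beside 283 of 16990 windows (1.67%), and in 5 of the 146 genes with a window that were counted lower outside the interferon list (3.42%). It is its own reverse complement in form, so both strands are covered. The stretches of named genes are shown with the box in capitals, Zfp36 being an immediate early gene described next.
Myl9, chr2:156775293-156775322, plus strand, the box beginning 161 bases before the start: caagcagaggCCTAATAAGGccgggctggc
Fhl2, chr1:43163973-43164002, minus strand, 31 bases before a start: gcgcgtgtgtCCTTATATGGtcaaatgact
Fhl2, chr1:43196838-43196867, minus strand, 96 bases before another start: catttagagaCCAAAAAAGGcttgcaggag
Zfp36, chr7:28379267-28379296, minus strand, 58 bases before the start: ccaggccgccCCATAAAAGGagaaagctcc
Fhl2 carries a box ahead of each of these annotated starts.

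Immediate early genes were lower on the arrays numbered 4. Of 48 measured members 42 had a lower and 6 a higher mean, 13 were counted lower and 0 higher, and the median was −0.49. Zfp36, which binds AU-rich messenger RNAs and speeds their decay, read 9.39 on the siBNC2 array numbered 4, against 12.17, 10.77 and 12.09 on siBNC2 arrays 1 to 3, and 9.72 on the siCTRL array numbered 4, against 12.91, 10.95 and 10.92 on siCTRL arrays 1 to 3, or 4.22-fold lower. Dusp4, a phosphatase that turns off MAP kinases, read 7.01 and 7.56, against 9.41, 9.54 and 9.27 in siBNC2 and 8.82, 9.03 and 8.31 in siCTRL. Dusp4 was lower by −1.78 ± 0.27, which was −1.16 without siBNC2 replicate 4. For both genes the ranges did not overlap, which the count requires of any counted gene.

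Some feedback genes of growth factor signalling were among the counted members, with the phosphatases Dusp6 at −1.20 ± 0.14 and Dusp5 at −1.15. Others were not counted, with Spry4 at −0.59 ± 0.43, Spry2 at −0.36 ± 0.23 and Errfi1 at −0.24 ± 0.17. Ier3 stood at −1.57 ± 0.24, Csrnp1 at −1.51 ± 0.26, the orphan receptor Nr4a1 at −1.31 ± 0.27 and Klf4, a zinc finger factor, at −1.24 ± 0.19. Dusp6 read 9.08 and 8.58, against 10.07, 10.08 and 10.35 in siBNC2 and 9.91, 9.81 and 9.91 in siCTRL. Egr1, Fos and Dusp1 were not counted, while Myc and Atf3 were, both at −1.02. Egr1 stood at −0.07 ± 0.51 and Fos at −0.35 ± 0.49, and their values on arrays 1 to 3 varied widely, with Egr1 at 10.90, 9.03 and 10.90 in siBNC2 and 11.00, 9.38 and 9.88 in siCTRL. Dusp1 stood at 0.28 ± 0.27. The letters of the cAMP response element, TGACGTCA, were in 5 of the 36 immediate early genes with a window (13.9%), beside 450 of 16990 (2.65%), those of the AP-1 site, TGANTCA, in 2 (5.56%), beside 1430 (8.42%), and the CArG box in 3 (8.33%).

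**Figure D2:**
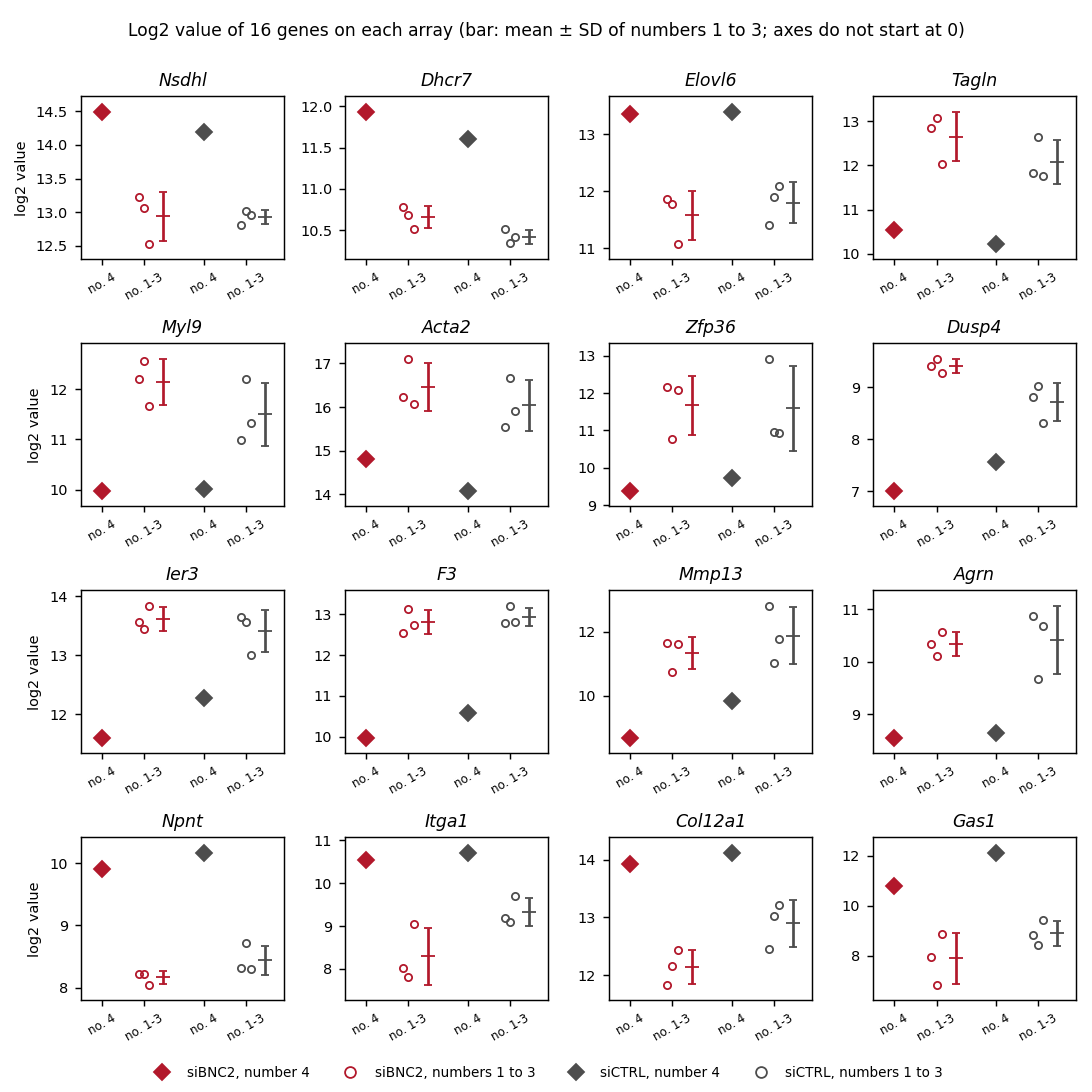
Log2 value of 16 genes on every array, siBNC2 in red and siCTRL in grey, with diamonds for the array numbered 4 and open circles for arrays 1 to 3 (bar, mean ± SD of the 3). In every panel the diamond lies outside the range of the circles of its own siRNA group, above it in Nsdhl, Dhcr7, Elovl6, Npnt, Itga1, Col12a1 and Gas1 and below it in the other 9 genes. The count requires this of every counted gene.

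Targets of the co-activator YAP, which responds to stiffness and cell shape, were mostly lower, with 24 of 29 members lower, 5 counted lower and 2 counted higher, and a median of −0.33. F3, the tissue factor that starts coagulation, had the largest difference, reading 9.98 and 10.58 against 12.54, 13.12 and 12.74 in siBNC2 and 12.79, 13.20 and 12.82 in siCTRL, or 6.01-fold lower. Ankrd1, a common reporter of this pathway, stood at −1.53 ± 0.40 and the matricellular gene Ccn1 at −1.19 ± 0.18. The counted members on the other side were Gas6, a ligand of the TAM receptors, at 1.54 ± 0.20 and Tgfb2 at 1.20 ± 0.15. TGF-β and SMAD genes had no common direction, with a median of −0.02 over 31 members. Their ligands Bmp2 and Bmp4 were counted higher beside Tgfb2, at 1.38 ± 0.25 and 1.25 ± 0.30, whereas Pmepa1, a feedback inhibitor that TGF-β induces, was counted lower at −1.11 ± 0.30.

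Matrix genes lay on both sides. Of 246 genes in 7 matrix lists 12 were counted higher (4.88%) and 9 lower (3.66%), and the median was 0.06. Dim were 70 of the 246. The fibrillar collagens and their processing enzymes leaned to the higher side, with 24 of 31 members higher, 2 counted, and a median of 0.33. P4ha3, a prolyl hydroxylase that stabilises the collagen helix, read 11.82 and 12.35, against 11.04, 9.80 and 10.34 in siBNC2 and 10.50, 10.86 and 11.66 in siCTRL, or 2.61-fold higher. Col3a1 read 12.17 and 12.84, against 10.23, 10.53 and 11.31 in siBNC2 and 11.90, 11.95 and 12.82 in siCTRL, so that in siCTRL the array numbered 4 lay 0.02 above the next one. Its difference was 1.04 ± 0.33, and 0.61 without siBNC2 replicate 4. The type I collagen chains Col1a1 and Col1a2, the bulk of scar collagen, stood at 0.47 ± 0.18 and 0.44 ± 0.17 and were not counted.

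Among the 33 other collagens, 12 of them dim, 2 were counted higher and 1 lower, with a median of −0.01. Col12a1, which lies on the surface of collagen fibrils, read 13.92 and 14.11, against 11.84, 12.16 and 12.43 in siBNC2 and 12.45, 13.02 and 13.22 in siCTRL, or 2.82-fold higher. Col6a2, of the beaded filament collagen, stood at 1.17 ± 0.19 and was counted, and its partner chain Col6a1 stood at 1.00 ± 0.16, at the limit of the count and not over it. Col8a1, a short-chain collagen of vessel walls, ran the other way, with 10.04 and 10.33 against 11.50, 11.50 and 12.21 in siBNC2 and 11.89, 11.32 and 11.53 in siCTRL, or 2.77-fold lower. Chains of different collagen types thus differed in direction on the same arrays.

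The basement membrane list, with 23 members, 10 of them dim, and a median of 0.06, held counted genes on both sides. Agrn, a heparan sulfate proteoglycan, read 8.56 and 8.65, against 10.33, 10.12 and 10.57 in siBNC2 and 10.88, 9.67 and 10.68 in siCTRL, or 3.41-fold lower. Npnt, a ligand of integrin α8β1, read 9.90 and 10.16, against 8.22, 8.22 and 8.05 in siBNC2 and 8.31, 8.71 and 8.30 in siCTRL, or 3.31-fold higher. Fras1, which anchors epithelia, was counted higher at 1.24 ± 0.22. Laminin chains themselves were not counted, the most separate being Lamb2 at 0.73.

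Of 51 glycoproteins, 15 of them dim, 3 were counted lower and 1 higher, with a median of 0.06. All 3 lower genes encode matricellular proteins, Ccn2 and Ccn1 of the CCN family and the thrombospondin Thbs1 at −1.25 ± 0.15. Ccn2, connective tissue growth factor, read 8.55 and 8.59 as the mean of 2 probe sets, against 9.99, 10.32 and 9.98 in siBNC2 and 9.88, 10.11 and 10.01 in siCTRL, or 2.79-fold lower, and the brighter probe set alone gave −2.83. The gene counted higher, the guidance protein Slit3, stood at 1.26 ± 0.49, with 13.87 and 14.20 against 13.06, 11.18 and 13.19 in siBNC2 and 13.49, 12.38 and 13.37 in siCTRL. Its SE was large because arrays numbered 2 were low. The median of 36 proteoglycans, 12 of them dim, was 0.06. Cd44, the receptor of hyaluronan, was counted lower, 2.96-fold, and the collagen-binding Dcn stood at 0.95 ± 0.32 and was not counted. Cd44 read 10.44 and 9.71, against 11.57, 12.45 and 11.41 in siBNC2 and 10.86, 11.95 and 11.60 in siCTRL.

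Proteases and their inhibitors, with a median of −0.03 over 48 members, had 3 genes counted lower and 2 higher. Mmp13, a collagenase, read 8.71 and 9.86, against 11.66, 10.76 and 11.60 in siBNC2 and 12.79, 11.04 and 11.78 in siCTRL, or 4.99-fold lower. Plaur, the urokinase receptor, was 2.80-fold lower and Timp1, the inhibitor of matrix metalloproteases, stood at −1.03 ± 0.19. The membrane protease Adam12 and the cross-linking enzyme Tgm2 were counted higher, at 1.43 ± 0.26 and 1.14 ± 0.25. Of 24 integrins and other receptors 3 were counted higher and 0 lower, with a median of 0.10, or 0.28 over the members that were not dim. Itga1, which pairs with β1 integrin to bind collagen, read 10.53 and 10.70, against 8.03, 7.81 and 9.05 in siBNC2 and 9.19, 9.10 and 9.69 in siCTRL, or 3.49-fold higher. Dag1, dystroglycan, was 2.15-fold higher, and Itga11, another collagen-binding chain, stood at 1.02 ± 0.20.

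**Figure D3:**
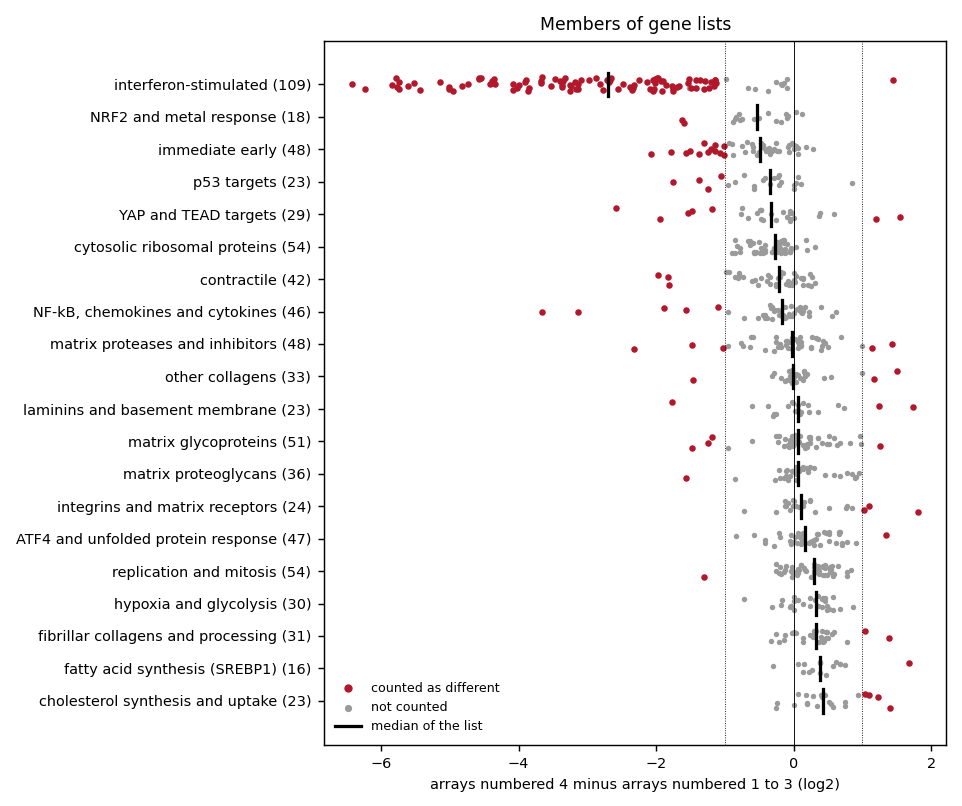
Difference between arrays numbered 4 and arrays numbered 1 to 3 (log2) for the members of 20 lists, the number measured in brackets, with red points for members counted as different, grey points for the rest and a black bar at the median. Dotted lines mark a 2-fold difference, and the medians run from −2.70 for the interferon-stimulated list to 0.43 for the cholesterol list.

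Of 46 NF-κB targets, chemokines and cytokines, 12 of them dim, 33 had a lower and 13 a higher mean, with a median of −0.17. The largest positive difference was that of the bright chemokine gene Cxcl12, at 0.61 ± 0.13, which was not counted. Counted lower were 5 members, of which the chemokines Ccl7 and Ccl2 also stand in the interferon list. Ccl7 read 9.17 and 8.79, against 11.90 to 13.12 in siBNC2 and 11.62 to 13.74 in siCTRL, or 12.6-fold lower. The interleukin 6 family members Il6 and Lif stood at −1.89 ± 0.48 and −1.56 ± 0.28. Targets of NRF2, the sensor of oxidative stress, and metallothioneins had 16 of 18 members lower and a median of −0.54. Nqo1, a quinone reductase, read 11.71 and 11.48, against 12.97, 13.86 and 12.83 in siBNC2 and 12.78, 13.70 and 13.13 in siCTRL, or 3.07-fold lower, and the heme oxygenase Hmox1 stood at −1.59 ± 0.33.

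Among 23 p53 targets the mean was lower for 17 and 4 were counted lower, the median being −0.34. Of the 4, Plk2 also stands in the immediate early list. Cdkn1a, the cyclin-dependent kinase inhibitor p21, read 10.25 and 11.10, against 12.83, 12.14 and 11.76 in siBNC2 and 12.56, 12.30 and 12.98 in siCTRL, or 3.38-fold lower. Replication and mitosis genes leaned the other way, with 40 of 54 members higher and a median of 0.29, but none was counted higher, the proliferation marker Mki67 standing at 0.83 ± 0.18. Ccnd1, cyclin D1, was counted lower, with 12.71 and 12.77 against 13.94, 14.34 and 14.11 in siBNC2 and 13.78, 13.91 and 14.24 in siCTRL, or 2.48-fold. A cell cycle inhibitor and the cyclin that starts the cycle were thus both lower on these arrays.

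Further lists had few or no counted members. ATF4 and unfolded protein response genes had 37 of 47 members higher and a median of 0.17, with Pck2, the mitochondrial enzyme that makes phosphoenolpyruvate, counted at 1.34 ± 0.26. Hypoxia and glycolysis genes had a median of 0.33 over 30 members with none counted, Pfkl standing at 0.87 ± 0.19. Heat shock genes had a median of −0.26, and the small chaperone Cryab stood at −0.85 ± 0.33, or −0.25 without siBNC2 replicate 4 and −1.44 without siCTRL replicate 4. Clock and glucocorticoid genes had a median of 0.06, with Bhlhe41 at −0.90 ± 0.25, or −0.40 without siBNC2 replicate 4 and −1.40 without siCTRL replicate 4.

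Genes of the translation machinery were lower by small amounts. Of 54 cytosolic ribosomal protein genes 50 had a lower mean and 0 were counted, with a median of −0.26, which was −0.48 in siBNC2 and −0.12 in siCTRL. Small nucleolar RNAs, which guide the chemical modification of ribosomal RNA, were looked at after their values were seen. Of 81 measured 6 were counted lower and 0 higher, with a median of −0.40. Snora44 read 9.53 and 9.64, against 10.64, 10.97 and 11.66 in siBNC2 and 11.95, 10.80 and 10.59 in siCTRL. Replication-dependent histone genes did not agree between the siRNA groups, with a median of −0.47 in siBNC2 and 0.20 in siCTRL, and the 10 mitochondrially encoded genes hardly differed, with a median of 0.06.

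Markers of other cell types were dim in part, beside 8872 of all 22180 genes, which are dim by definition. Of 20 hepatocyte markers 16 were dim and 0 were counted, and the mean of the list lay between 5.09 and 5.28 on the 8 arrays. Dim too were 4 of 9 cholangiocyte, 9 of 14 macrophage and leukocyte, and 8 of 13 endothelial markers, the cholangiocyte share being near that of all genes. Members that were not dim included Krt8, Sox9 and Cd14, with means of 7.4, 7.19 and 9.72. Of these 3 lists 1 gene was counted, the lysosomal glycoprotein gene Cd68, at −1.22 ± 0.21. The leukocyte marker Ptprc and the macrophage marker Csf1r were dim. Mesothelial markers were not dim as a group. Of 10 measured 2 were dim, 7 had a higher and 3 a lower mean, and the median was 0.32. The bright membrane glycoprotein gene Gpm6a read 16.94 and 17.07, against 15.56 to 16.35 in siBNC2 and 16.01 to 16.65 in siCTRL, so that it lay above all other arrays without reaching 2-fold, at 0.92 ± 0.23. Lrrn4 stood at 0.91 ± 0.45, the uroplakin Upk3b at 0.67 ± 0.39 and the transcription factor gene Wt1 at 0.53 ± 0.26, while another uroplakin, Upk1b, stood at −0.79 ± 0.25 and the keratin Krt14 was counted lower at −1.03 ± 0.16. The part of this list in the other results was not tested. Of 15 stellate cell and myofibroblast markers 2 were dim, Lrat and Reln, with means of 5.34 and 4.94. Des and Postn lay little above the limit, with means of 5.88 and 5.69. Tagln, Acta2 and Timp1 of this list were counted lower, while Col3a1 and Pdgfra, the receptor of platelet-derived growth factor, were counted higher. Pdgfra read 15.53 and 15.11, against 13.80, 13.98 and 14.00 in siBNC2 and 14.01, 13.96 and 14.34 in siCTRL. Markers of the quiescent stellate cell had a median of 0.04 over 29 members, 9 of them dim, with the lipase Lpl counted lower, 2.51-fold.

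The genes with the largest positive difference belonged to none of the lists. Gas1, a membrane protein of growth-arrested cells that also binds hedgehog ligands, read 10.80 on the siBNC2 array numbered 4, against 7.95, 6.85 and 8.88 on siBNC2 arrays 1 to 3, and 12.11 on the siCTRL array numbered 4, against 8.84, 8.42 and 9.44 on siCTRL arrays 1 to 3. It was 8.34-fold higher and no other gene was counted higher by 8-fold or more. Vstm2a read 7.38 and 8.05, against 4.97, 5.28 and 5.46 in siBNC2 and 5.22, 5.76 and 5.42 in siCTRL, or 5.15-fold higher. Ptn, the heparin-binding growth factor pleiotrophin, was 4.78-fold higher, and Angptl7, a secreted angiopoietin-like protein, and Them7 were each 4.68-fold higher. The membrane transporters Slc25a23, of the mitochondrial inner membrane, and Slc1a3, a glutamate carrier, were 4.48-fold and 3.97-fold higher, and Tmem178 4.28-fold.

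Other counted genes outside the lists were picked after their values were seen, for their known roles in mesenchymal cells. Cdon, a co-receptor of hedgehog ligands like Gas1, stood at 1.79 ± 0.24, the secreted Wnt antagonist Frzb at 1.71 ± 0.24 and the Wnt agonist Rspo1 at 1.60 ± 0.34. Cygb, a globin by which stellate cells are known, stood at 1.70 ± 0.22, the mesenchymal cadherin Cdh11 at 1.68 ± 0.24 and the growth factor Igf2 at 1.65 ± 0.26. The alarmin Il33 stood at 1.93 ± 0.28 and the receptor Egfr at 1.34 ± 0.18. On the lower side Gadd45g, a stress-induced gene, stood at −2.88 ± 0.23, the aryl hydrocarbon receptor target Cyp1b1 at −2.71 ± 0.33, and the chromatin protein Hmga2 at −1.80 ± 0.31. Cyp1b1 read 11.60 and 11.15, against 13.69, 14.65 and 13.61 in siBNC2 and 13.59, 14.65 and 14.29 in siCTRL.

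The effect of the siRNA, which asks which genes depend on BNC2, does not enter the difference between the numbers in this balanced layout and could be tested. With number 4 as a covariate, limma with Benjamini-Hochberg adjustment over all genes gave 0 of 22180 genes past an adjusted p of 0.05 (0%), and 961 (4.33%) at an unadjusted p under 0.05, of which 452 were lower and 509 higher in siBNC2. The smallest adjusted p was that of Bnc2, which averaged lower in siBNC2 by −1.33 ± 0.15 (SE) with an adjusted p of 0.114. Without the covariate the same difference had an SE of 0.31 and an adjusted p of 1.00. Over all genes the median SE was 0.15 with the covariate and 0.16 without it. Among the 109 interferon-stimulated genes 0 reached an unadjusted p under 0.05 in this comparison.

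Genes that were higher on the arrays numbered 4 were mostly lower in siBNC2. Of the 188 counted higher outside the interferon list 153 (81.4%) had a lower mean in siBNC2, beside 51.0% of the 13308 genes that were not dim, and their median siRNA difference was −0.18. At an unadjusted p under 0.05 there were 25 of them (13.3%), 23 lower and 2 higher in siBNC2, beside 4.31% of the genes that were not dim. Within numbers 1 to 3 alone 153 of the 188 were lower in siBNC2 (81.4%), beside 50.6% of the genes that were not dim. Within number 4 alone 114 of the 188 were (60.6%), beside 50.2%. The 200 genes counted lower outside that list had 91 (45.5%) with a lower mean in siBNC2 and a median of 0.04. Genes measured on the same arrays are not independent replicates. No test of these shares was made, and none of the single genes passed after adjustment. Gas1 differed between siBNC2 and siCTRL by −1.08 ± 0.38, Ptn by −0.85 ± 0.32, Itga1 by −0.81 ± 0.28, Col12a1 by −0.62 ± 0.20 and Col3a1 by −1.32 ± 0.29, the adjusted p of each being 1.00 in limma.

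**Figure D4:**
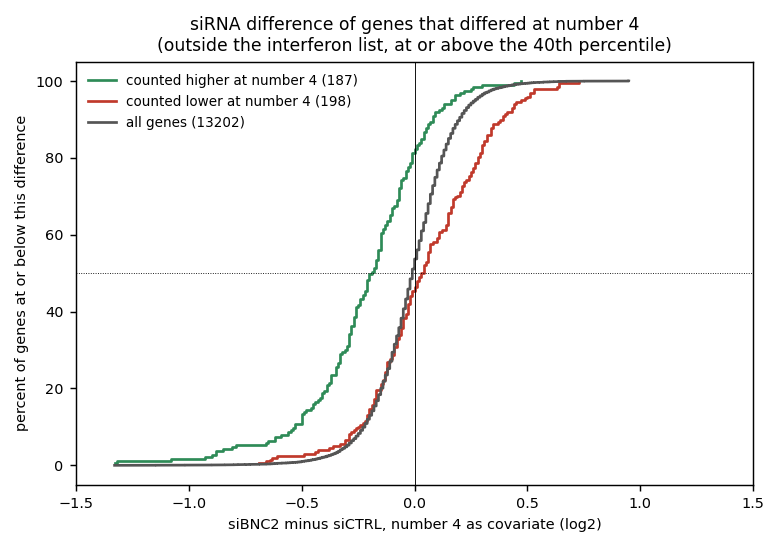
Cumulative share of genes (percent) by their difference between siBNC2 and siCTRL (log2, number 4 as covariate), for genes counted higher on the arrays numbered 4, genes counted lower and all genes, outside the interferon list and at or above the 40th percentile of mean level. The curve of the genes counted higher lies to the left of that of all genes, with medians near −0.18 and −0.01.

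Whether the response to siBNC2 itself differed at number 4 was tested as an interaction, in which the single arrays numbered 4 borrow their spread from numbers 1 to 3. Limma gave 0 genes past an adjusted p of 0.05 (0%), the smallest being 1.00, and 556 (2.51%) at an unadjusted p under 0.05, 241 with a more positive and 315 with a more negative siBNC2 difference at number 4. For Bnc2 the interaction was 0.65 ± 0.30, with an unadjusted p of 0.0608 and an adjusted p of 1.00 in limma. The gene with the smallest p was Tceal6, a dim gene that read 6.83 on the siBNC2 array numbered 4, against 5.05, 5.25 and 5.34 on siBNC2 arrays 1 to 3, and 5.02 on the siCTRL array numbered 4, against 6.03, 5.63 and 5.49 on siCTRL arrays 1 to 3. Next came Olfr172, Olfr57, Zfp97 and Mir206, of which Olfr57 and Mir206 are dim. Among the lists, 6 of 24 histone genes and 6 of the ribosomal protein genes reached an unadjusted p under 0.05 for the interaction, beside 2.51% of all genes. The interaction thus left no single gene past adjustment, and an adjusted p that misses the threshold does not show that the response was the same.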

How the data were processed

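Each of the 8 RNA samples was hybridised to its own Affymetrix mouse gene array, in 1 colour. Scans were summarised by the authors in the GIANT toolset, which calls Affymetrix Power Tools (GC correction, scaling of intensities, RMA on core genes), and the deposited values are taken as log2 signals, the scale that RMA gives. Quantile normalization by the authors would remove a shift shared by most genes. A genome build for the arrays is not given in the sources used here. Of 41345 probe sets, 23521 with 1 gene symbol in the platform annotation were averaged per symbol into 22180 genes, and 1820 with several symbols and 16004 with none were left out. The Entrez identifiers of 23328 probe sets matched RefSeq genes of GRCm38.p6, and 0 symbols were updated. There were 0 unused columns. The number of arrays limits the precision.

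Linear models came from limma 3.58.1 (R 4.3.3, moderated by eBayes), with siRNA and number 4 as terms. All tests were two-sided, p-values were adjusted by Benjamini-Hochberg across the whole table, and ± is the SE of limma. The 33 lists were written by hand from textbook knowledge, and 1003 of 1147 entries were measured. The measured entries stand for 974 genes, since a gene can be in more than 1 list. Genes not measured under 1 symbol were not analysed here. Members and lists were chosen with earlier results of these data known. Text names follow a rule on the largest differences per list, the 8 largest in each direction outside the interferon list and the 5 smallest interaction p. Other genes were chosen after their values were seen. Promoter windows were matched to 49 of the 65 genes so named. Scripts were tested on simulated data. Alternatives were a second quantile normalization, median centring, a filter at the 40th percentile, the brightest probe set, all probe sets, a 1.5-fold limit, a replicate block, no covariate, only arrays 1 to 3, a trended robust prior and leaving out each array.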

Additional observations from a re-analysis of the deposited data

Results flagged for a closer look

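In a siRNA group of 4 arrays, the gap between the most extreme array and its neighbour was divided by the whole range. The ratio reached Dixon's critical value for 15 of 152 values checked, which were the named genes and the means of the main lists in each siRNA group, and chance alone gives about 1 in 20 groups. Of these 15, 14 had the array numbered 4 at the extreme, and these arrays and most of these genes were chosen on the same values. In siBNC2 that array was the lowest for Slfn2 (0.836), Dusp4 (0.893), Ier3 (0.82902), Gm7609 (0.845), Gbp9 (0.862) and Mir206 (0.836), and the highest for Npnt (0.907), Tceal6 (0.840) and the mean of integrins and matrix receptors (0.895). In siCTRL it was the highest for Nsdhl (0.855), Dhcr7 (0.861) and the mean of the cholesterol list (0.878), and the lowest for Ccn2 (0.851) and F3 (0.842). The exception was Cryab in siCTRL (0.886), where array 1 read highest at 12.26, against 11.61 on the array numbered 4 and 11.68 and 11.63 on the others.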

How the results depend on the processing

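The count of genes different on the arrays numbered 4 depended on the limit and on the features counted. It was 886 higher and 758 lower at 1.5-fold, and 359 higher and 597 lower over all probe sets, and without 1 array it lay between 166 and 338 genes higher and between 283 and 437 lower, the largest of each without siCTRL replicate 4, which leaves the range condition to siBNC2 alone. For the siRNA difference, genes at an unadjusted p under 0.05 numbered 531 with the filter at the 40th percentile and 1844 over all probe sets, and for the interaction 256 and 1211, where fewer or more features were tested, and 0 passed an adjusted p of 0.05 in limma in any alternative of either comparison. Whether the replicate number pairs the arrays is not settled, since no source ties the number to a round of replicates. Deviations from the group means correlated at 0.39, 0.42 and 0.67 for numbers 1, 2 and 4 but at −0.00 for number 3. Each group mean includes the array numbered 4, so the shift for which these arrays were chosen enters all of these values. They therefore cannot decide the pairing. With the replicate number as a block the siRNA difference gave 1207 genes and the interaction 665 at that unadjusted p, and the block left Bnc2 at −1.33. The median of integrins and matrix receptors was 0.28 with the filter and lay between 0.04 and 0.23 without 1 array, and that of other collagens between −0.01 and 0.08. The median of cholesterol efflux genes was 0.21 with the filter, that of ribosomal protein genes −0.48 without siCTRL replicate 4 and that of histone genes 0.20 without siBNC2 replicate 4, and the cause was not tested. Of the 65 named genes the 5 chosen for the interaction changed sign in the difference at number 4 under some alternative, and 9 moved by over 1.5 times without 1 array, these 5 with Col3a1, Dusp4, Cryab and Bhlhe41. With 1 array per siRNA at number 4, no spread can be measured within that number.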
